A study of Homo sapiens with 8 samples.

Results

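The regions described here are 386 stretches of the human genome that lay over 2 kb from every protein-coding transcription start site (TSS) and were bound by HIF-1β in A549 cells alone. They were selected on peak presence. A region counted as a site of a line where both of its replicate peak lists had a peak there, sites of all lines were merged wherever they shared 1 bp, and a merged region was kept if it held a site of A549 and of no other line. The 386 members were 10.1% of 3840 merged regions, 37.1% of the 1041 merged regions with an A549 site and 55.2% of the 699 of those that were distal. A549 alone had a site at 443 regions, of which the other 57 lay within 2 kb of a TSS.

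The data are HIF-1β ChIP-seq from 4 human cancer cell lines with 2 libraries each, made with the antibody NB100-110 from cells kept at 0.5% oxygen for 16 h. A549 is a lung carcinoma line (replicates 2 and 3), PC-3 a prostate carcinoma line and T47D a breast carcinoma line (replicates 1 and 2 of each), and HCT-116 a colorectal carcinoma line (replicates 2 and 3). Since all 8 libraries were hypoxic and no normoxic or control library was analysed here, line and hypoxic response cannot be told apart. The labels do not say whether replicates came from separate cultures, so the p-values given here measure only the spread between these libraries. Peak lists hold no expression values, and the identity of the lines was not checked against marker genes.

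HIF-1β is the subunit that each oxygen-regulated HIF-α subunit needs in order to bind DNA, and in hypoxia the pair binds the hypoxia response element (HRE), whose core reads ACGTG or, less often, GCGTG. HIF-1β also pairs with the aryl hydrocarbon receptor (AHR). HIF binds mostly where chromatin is already open, so distal sites tend to lie in enhancers that other factors of the cell type, such as AP-1, hold accessible.

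Sequences of members are given to show the core in its surroundings. The first set holds 4 of the 12 members with the highest scores, each with a core in the central 200 bp and outside exons. All are read from the plus strand of GRCh37 (hg19), and capitals mark ACGTG or GCGTG, on the minus strand CACGT or CACGC, and the AP-1 motif TGANTCA. Each is named by the gene with the nearest protein-coding TSS, except in the third set, where the name is that of the known target.
PMEPA1, chr20:56323434-56323498: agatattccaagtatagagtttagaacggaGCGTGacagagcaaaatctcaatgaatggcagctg
PON1, chr7:94893610-94893674: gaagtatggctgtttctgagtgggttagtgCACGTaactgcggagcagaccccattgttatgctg
EGLN3, chr14:34532860-34532924: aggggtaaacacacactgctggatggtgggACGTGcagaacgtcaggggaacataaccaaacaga
DAPK1, chr9:89987512-89987576: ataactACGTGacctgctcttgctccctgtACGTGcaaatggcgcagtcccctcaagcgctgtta

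A second set shows cores beside an AP-1 motif, in the 4 highest-scoring members that had both in the central 200 bp.
PRDM1, chr6:106244066-106244167: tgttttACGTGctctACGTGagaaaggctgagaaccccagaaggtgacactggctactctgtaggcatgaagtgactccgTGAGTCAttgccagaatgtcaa
EFNA5, chr5:106701468-106701526: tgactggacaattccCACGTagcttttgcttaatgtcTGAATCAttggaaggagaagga
PFKFB3, chr10:6321538-6321634: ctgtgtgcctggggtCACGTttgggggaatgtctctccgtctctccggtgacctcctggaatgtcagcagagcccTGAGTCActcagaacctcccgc
PRKAG2, chr7:151442541-151442588: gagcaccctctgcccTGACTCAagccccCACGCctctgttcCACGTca

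The third set comes from members near known targets of HIF, of NRF2 (the activator of antioxidant genes) and of AHR. The member near LDHA had an AP-1 motif and no core in its central 200 bp, and each of the others had at least 1 core there.
PFKP, chr10:3149741-3149805: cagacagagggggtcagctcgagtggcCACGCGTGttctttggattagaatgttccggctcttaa
LDHA, chr11:18405434-18405500: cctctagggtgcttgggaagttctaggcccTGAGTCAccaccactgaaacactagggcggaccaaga
DDIT4, chr10:74003703-74003767: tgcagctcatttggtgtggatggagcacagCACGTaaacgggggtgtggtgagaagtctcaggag
BHLHE40, chr3:5065134-5065198: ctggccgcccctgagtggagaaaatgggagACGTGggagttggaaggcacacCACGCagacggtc
EPAS1, chr2:46460174-46460238: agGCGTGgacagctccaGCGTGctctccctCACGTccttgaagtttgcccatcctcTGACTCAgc
HMOX1, chr22:35768188-35768252: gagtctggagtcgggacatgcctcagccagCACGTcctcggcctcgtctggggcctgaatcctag
UGT1A6, chr2:234608900-234608964: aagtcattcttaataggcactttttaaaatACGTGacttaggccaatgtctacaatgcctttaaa

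Members were moderately scored among the A549 peaks. The score is the value that the authors' peak caller MACS gave each peak, on a scale that the sources used here do not give. No peak of either A549 list had a score under 50. At the members the score ran from 50.06 to 1725.11 in replicate 2, with a median of 126, and from 50.01 to 876.18 in replicate 3, with a median of 97.9. Their median percentile among all peaks of the list was 62.6 in replicate 2 and 50.9 in replicate 3. The score of replicate 2 was the higher at 280 members, with a median ratio of 1.31. These values took part in the selection, since a region entered only with a peak in both lists, and are given as a description.

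Distal A549 regions shared with another line scored higher, with medians of 227 in replicate 2 and 149 in replicate 3 over 313 regions. When all merged A549 regions were ranked by the mean percentile of both replicates, members made up 62 of the highest 260 (23.8%) and 121 of the lowest 261 (46.4%). The Spearman correlation of the replicates' scores was 0.66 across the members and 0.858 across the shared distal regions. Regions are not independent replicates, so both are descriptions. The number of reads in each library is not in the lists, so the sequencing depth behind these scores is unknown.

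**Figure D1:**
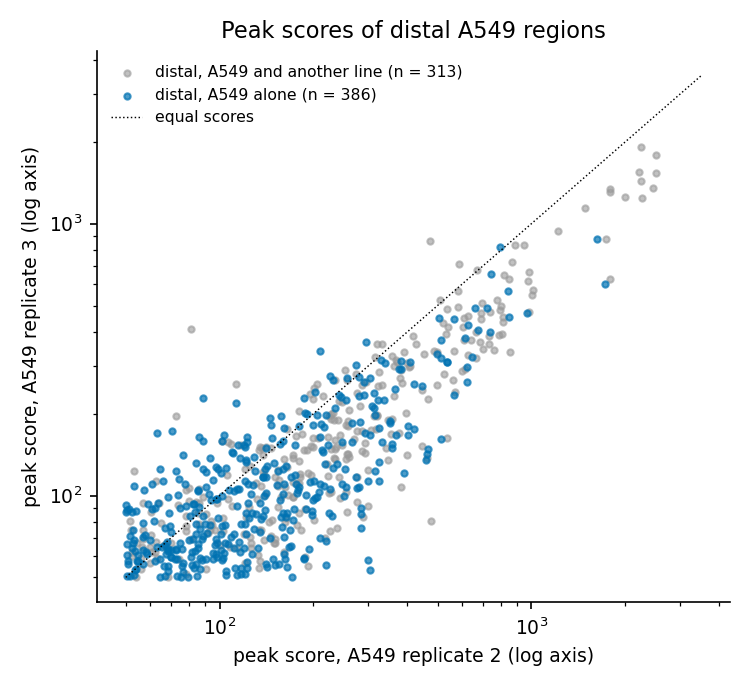
MACS peak scores of A549 replicate 2 (horizontal, log axis) and replicate 3 (vertical, log axis), 1 point per distal merged region, for 386 regions of A549 alone (blue) and 313 shared with another line (grey). The dotted line marks equal scores. Blue points lie mostly in the lower left, with medians of 126 and 97.9, and 280 of them fall below the line.

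The 12 members with the highest mean percentile were led by a region of 1543 bp near DNAH17, a gene of axonemal dynein, at chr17:76587920-76589462, with scores of 1624.53 in replicate 2 and 876.18 in replicate 3. The next, 24121 bp from a TSS of the neuropeptide Y receptor gene NPY4R, scored 1725.11 and 599.41 and was 4287 bp wide, against a median of 1126 bp. Over its whole length the RUNX motif TGTGGTT matched 22 times, and no filter for repeated sequence was applied here. Neither the DNAH17 nor the NPY4R region had a core or an AP-1 motif in its central 200 bp, and both overlapped a peak of PC-3 replicate 2. The third, 67755 bp from WDR72, scored 793.09 and 819.39, held 3 cores and overlapped no peak of another line.

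A region of 1334 bp in an intron of EGLN3 was the sixth, with scores of 965.34 and 467.62. EGLN3 encodes a prolyl hydroxylase that marks HIF-α for degradation and is itself a HIF target. The region near PON1, the gene of the serum enzyme paraoxonase, lay in an intron of PPP1R9A, 59600 bp from the TSS of PON1, and scored 840.48 and 566.87. Others in the 12 lay near PMEPA1 (744.62 and 655.27), an inhibitor of TGF-β signalling, and near the chemokine receptor gene CCR7 (848.51 and 453.01). The region near RBCK1, a subunit of the linear ubiquitin ligase, scored 718.99 and 490.13. Its AP-1 motif lay in the central 200 bp.

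The list was completed by regions near PRDM1 (658.13 and 489.28), the gene of a transcriptional repressor that drives plasma cell differentiation, and in an exon of the F-box gene FBXO21 (735.17 and 398.35). A region near the kinase gene DAPK1 scored 626.38 and 423.84, and one near the ephrin gene EFNA5 scored 675.45 and 404.98. Of the 12, 8 had a core in the central 200 bp, 3 had an AP-1 motif and 3 had neither. Peaks of PC-3 replicate 2 overlapped 5 of them, and 6 overlapped no peak of any other line.

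A549 alone, as the rule defines it, did not mean that no peak was listed in any other line. A single replicate of another line had a peak at 118 members, and 268 (69.4%) had no peak in any of the 6 other libraries. Of the 118, 100 had peaks of 1 other line, 17 of 2 lines and 1 of all 3 lines. PC-3 replicate 2 accounted for 87 members (22.5%, exact 95% binomial interval 18.5 to 27.0%), and PC-3 replicate 1 for 0 (interval to 0.951%). These lists held 2890 and 1041 peaks on the main chromosomes, and the rule keeps out any region with peaks of both. HCT-116 replicate 2 had a peak at 33 members (8.55%) and replicate 3 at 4, and T47D replicates 1 and 2 had peaks at 4 and 9. The median of the mean percentile in A549 was 57.1 for members with such a peak and 53.8 for those without. Intervals of shares cover counting error only.

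The centre of a member held an HRE core far more often than nearby sequence did. Of the members, 206 (53.4%, interval 48.3 to 58.4%) had ACGTG on either strand in the central 200 bp, compared with 9.72% of 772 windows of the same length placed 5 kb away on each side. GCGTG was present in 24.6% of members and 14.1% of these windows, and either core in 68.1% (63.2 to 72.8%) and 22.0%. The centre is the middle of the overlap of the replicates' peaks. Over 50-bp bins, the share of members with ACGTG was 16.1% and 15.3% in the bins on either side of the centre and between 0.777% and 3.89%, with a median of 2.07%, in the 20 bins more than 500 bp away.

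**Figure D2:**
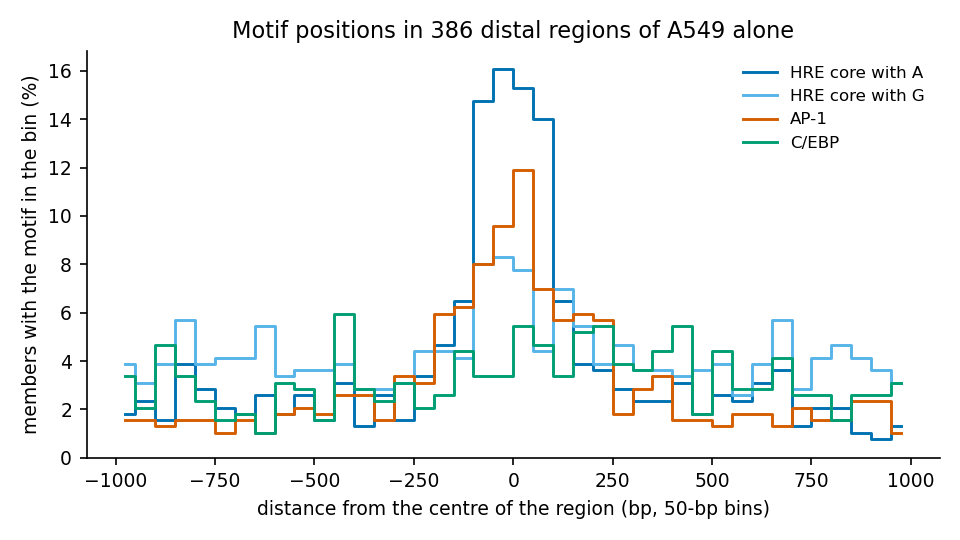
Share of the 386 members (vertical, percent) with a motif in each 50-bp bin, by distance of the bin from the centre of the region (horizontal, bp), for ACGTG (HRE core with A), GCGTG (HRE core with G), AP-1 and C/EBP. ACGTG peaks at 16.1% and AP-1 at 11.9% next to the centre, while the C/EBP line has no such peak and is 5.44% there.

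The number of cores was 1 in 191 members, 2 in 53, 3 in 14, and 4 to 6 in the remaining 5 that had any. The 6 cores lay in the member 18697 bp from the kinase gene SIK1. No core was found in the central 200 bp of 123 members, and 92 of these had at least 1 elsewhere in the region. The remaining 31 had no core in the whole region, and 8 of them had an AP-1 motif in the centre.

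The bases next to ACGTG also differed between the members and the windows 5 kb away. Read so that the core is on the plus strand, T stood before 41.3% (35.1 to 47.8%) and G before 33.5% of 242 cores in members, and T before 14.4% (8.30 to 22.7%) and G before 19.2% of 104 cores in the windows. C stood before 14% and 41.3%, respectively. The base after the core was C in 34.7% (28.7 to 41.1%) in members and 11.5% (6.11 to 19.3%) in the windows. A CACGTG palindrome was counted once on each strand, both times with C before the core. CACGTG was in 16 members and in 20 of the 772 windows, so palindromes weigh more among the 104 cores of the windows. The intervals treat both counts of a palindrome as separate cores. What palindromes contributed to the differences before the core was not tested.

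Among other motifs, AP-1, the binding motif of FOS and JUN proteins, was in the central 200 bp of 30.1% of members (25.5 to 34.9%) and of 5.70% of the windows 5 kb away. The antioxidant response element (ARE, TGACNNNGC), bound by NRF2, was in 16.8% (13.2 to 21%) and 7.64%. Of the 65 members with an ARE match, 11 had one whose own letters also held an AP-1 match. The C/EBP motif TTGCNNAA was in 15.8% (12.3 to 19.8%) of members and 8.55% of the windows, the TEAD motif CATTCC in 22.0% and 13%, and the FOX motif TGTTTNC in 23.3% and 17.2%. TNGCGTG, the motif of AHR with HIF-1β, was in 3.11% of members and 3.37% of the windows, and the GATA motif AGATAA in 11.4% and 11.5%. Mean GC content was 49.5% in members (SD 8.38 over 386 regions) and 43.5% in the windows. What the GC difference contributed to the motif shares was not tested.

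The share of members with a core was 68.1% both among those with an AP-1 motif and among the 270 without. Both were present in 79 members, only a core in 184, only AP-1 in 37 and neither in 86. AP-1 was in 41.4% (30.9 to 52.4%) of the 87 members that overlapped a peak of PC-3 replicate 2 and in 26.1% (21 to 31.8%) of the 268 with no peak of another line. ACGTG was in 58.0% of the 193 members with the higher scores and 48.7% of the other 193, and AP-1 in 25.9% and 34.2%. The intervals of these shares overlapped for each of the 3 comparisons, which does not show that the shares were alike. The differences were not tested.

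These shares were set beside those of other distal regions. ACGTG was in 65.5% of distal A549 regions shared with another line, 59.7% of distal regions of PC-3 alone, 45.4% of HCT-116 alone and 33.4% of T47D alone, as against 53.4% of members and 47.8% of all merged regions. GCGTG was in 24.6% of members and 39.8% of all merged regions. It was in 34.8% of the shared A549 regions, 18.9% of PC-3 alone, 41.4% of HCT-116 alone and 24.3% of T47D alone. Either core was in 68.1% of members and 70.7% of all merged regions. The share with either was 80.5% in the shared A549 regions, 71.8% in PC-3 alone, 73.6% in HCT-116 alone and 50.9% in T47D alone. AP-1 was in 28.8% of the shared A549 regions, 25.2% of PC-3 alone and 31.4% of HCT-116 alone, and its share differed most from that of members in T47D alone, with 6.38%. Over all merged regions AP-1 was in 13.4%, the ARE in 11.7% and C/EBP in 7.66%. For C/EBP the share was 15.8% (12.3 to 19.8%) in members and 6.07% (3.58 to 9.54%) in HCT-116 alone, and its interval overlapped those of the shared A549 regions (11.8%), T47D alone (11.7%) and PC-3 alone (9.66%). Mean GC content was 49.5% in members, 49.3% in PC-3 alone and 61.4% in the 65 distal regions bound in all 4 lines.

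**Figure D3:**
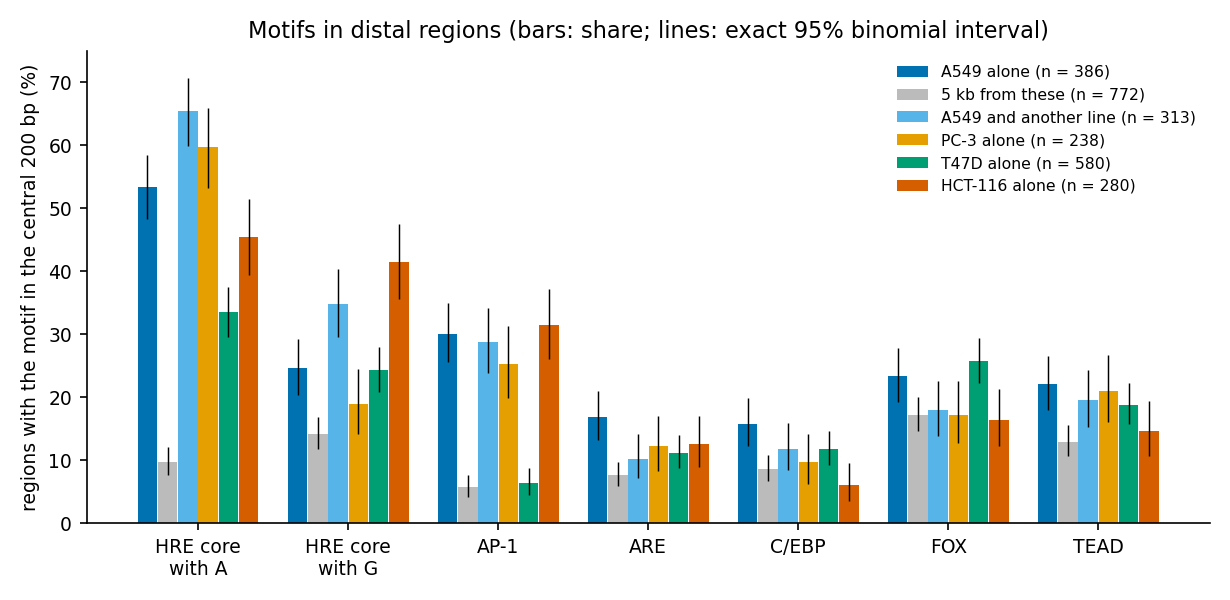
Share of distal regions (vertical, percent) with each motif in the central 200 bp, for regions of A549 alone, windows 5 kb from them, A549 regions shared with another line, and regions of PC-3, T47D and HCT-116 alone. Bars give the share and lines its exact 95% binomial interval. In members ACGTG is in 53.4% and AP-1 in 30.1%, against 9.72% and 5.70% in the windows 5 kb away, and AP-1 in T47D alone is 6.38%.

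The members were chosen by line, so whether such features go with the line was tested on other regions, the distal peaks that overlapped no peak of any other library. These gave 285 regions in A549 replicate 2, 98 in replicate 3, and between 38 and 781 in each of the other 6 libraries, with no region in more than 1 set. For each of 16 features (14 motifs, GC content and the share in introns), the mean difference between the libraries of a line was set against that under every possible pairing of the 8 libraries (one-sided exact permutation test, smallest p 0.0095). None of the 16 passed after Benjamini-Hochberg adjustment. A feature could not pass by itself, since several had to have p-values at or near the smallest possible together. GCGTG had that smallest p, 0.0095 by the exact permutation test, and its adjusted p was still 0.152. The lowest adjusted p was 0.152, while 5 features had an unadjusted p under 0.05, namely the motifs GCGTG, of GATA factors, of C/EBP and of SP1 (GGGCGG), and the GC content.

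The C/EBP motif was in 15.1% of the peaks of A549 replicate 2 and 19.4% of those of replicate 3, and in 5.16 to 13.7% of those of the 6 other libraries (exact permutation test over all lines, which does not set A549 against the rest, p = 0.0476, adjusted p = 0.152). GATA was in 11.6% and 13.3% in A549, against 7.28 to 10.5% elsewhere (the same exact permutation test, p = 0.0286, adjusted p = 0.152). In windows 5 kb from these A549 peaks, C/EBP was in 9.30% and 13.3% and GATA in 12.5% and 18.9%, so that GATA was no more frequent in the peaks than beside them. Beside the peaks of the 6 other libraries, C/EBP was in 3.95% (PC-3 replicate 1) to 11.25% (HCT-116 replicate 3) of windows. Whether C/EBP differs between lines relative to these windows was not tested. AP-1 was in 25.3% and 23.5% of the A549 peaks, 32.7% in PC-3 replicate 2, 13.2% in PC-3 replicate 1, and 5.59% and 5.42% in T47D. The AP-1 shares in HCT-116 were 25.8% and 22.5% (exact permutation test over all lines, p = 0.143, adjusted p = 0.254). ACGTG was in 24.9% and 41.8% of the A549 peaks and in 23 to 37.5% of those of the other libraries (p = 0.771, adjusted p = 0.882 by the same exact permutation test).

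**Figure D4:**
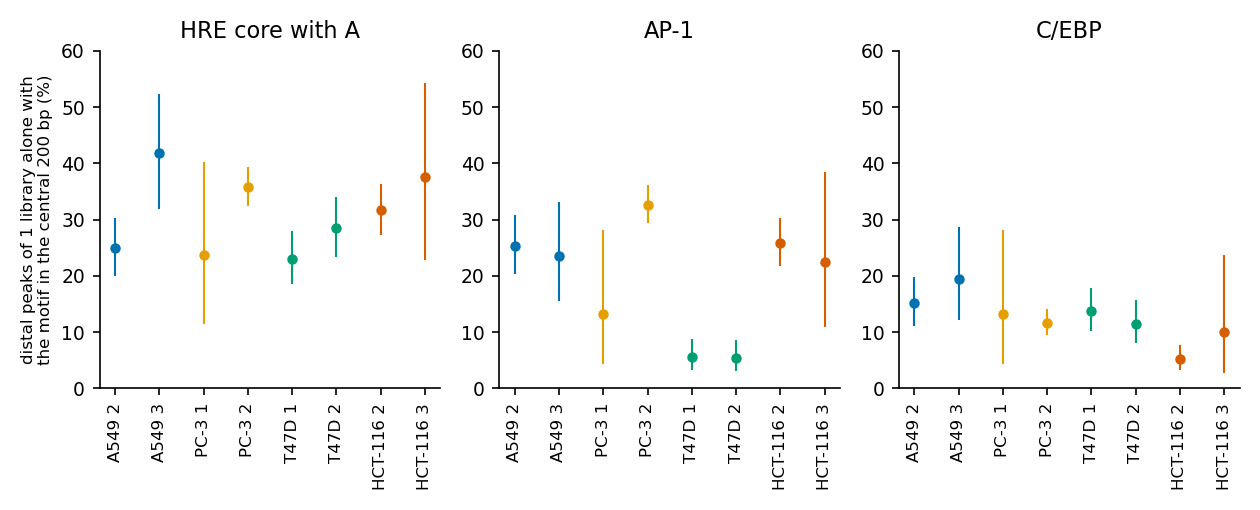
Share of distal peaks found in 1 library alone (vertical, percent) whose central 200 bp hold ACGTG (left), AP-1 (middle) or the C/EBP motif (right), for each of the 8 libraries, named by line and replicate number on the horizontal axis. Points are shares and lines exact 95% binomial intervals. Both T47D libraries are lowest for AP-1, at 5.59% and 5.42%, and both A549 libraries are highest for C/EBP, at 15.1% and 19.4%.

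The distance of members to the nearest protein-coding TSS ran from 2025 to 1211843 bp with a median of 37521 bp, and was up to 10 kb for 67 members and over 100 kb for 92 (23.8%). The median was 35848 bp in distal regions of PC-3 alone, 33597 bp in HCT-116 alone and 40875 bp in T47D alone, and 29435 bp for distal A549 regions shared with another line and 20673 bp for those bound in all 4 lines. The centre was in an intron of a protein-coding gene in 156 members (40.4%), in an exon in 8 and between genes in 222 (57.5%). The share in introns was 41.6% in distal regions of PC-3 alone and 32.9% in those of T47D alone. The median gap from a member to the nearest A549 region shared with another line was 1.04 Mb, and 67 members had one within 100 kb.

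**Figure D5:**
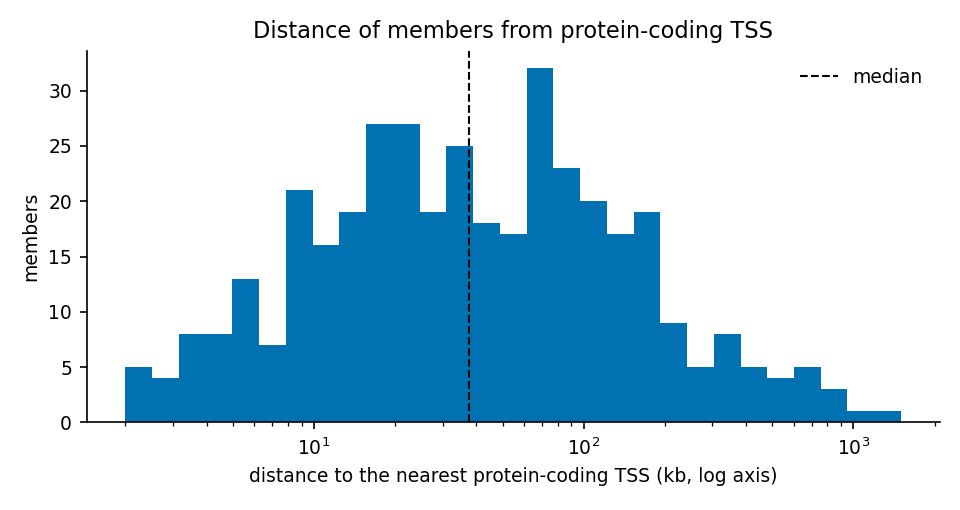
Number of members (vertical) by distance to the nearest protein-coding TSS (horizontal, kb, log axis), with the median of 37521 bp as a dashed line. The distances run from 2025 to 1211843 bp, and 92 members lie beyond 100 kb.

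The members nearest to the 2 kb limit were regions 2025 bp from TRIM16, 2166 bp from PFKP and 2175 bp from FGL1, with scores in replicates 2 and 3 of 167.08 and 64.55, 122.34 and 164.78, and 309.15 and 212.82, respectively. Just outside it, regions of A549 alone 1972 bp from APOL1, 1943 bp from FA2H and 1857 bp from DHRS3 scored 168.69 and 303.16, 124.52 and 124.82, and 330.2 and 458.63. Chromosomes 2 and 8 had the most members, 33 each. For chromosome 8 that was 8.55% of members (5.96 to 11.8%), with 4.73% of the genome's length, 8.31% of the shared distal A549 regions and 5.30% of distal regions without an A549 site.

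Most members stood alone. Joined wherever they followed each other within 50 kb, 341 members had no neighbour and 45 fell into 21 runs, 19 of which were pairs. The longest run held 4 members over 90310 bp around TCIM, a gene of a small regulator of Wnt signalling, with scores from 74.4 to 126.85 in replicate 2 and from 60.92 to 125.1 in replicate 3. A run of 3 lay within introns of PDE4D, which encodes a phosphodiesterase that breaks down cyclic AMP. Its members scored 159.28 and 158.3, 496.98 and 331.16, and 511.58 and 374.18, each had 1 core in the central 200 bp, and none overlapped a peak of another line. The highest-scoring of them lay 83739 bp from the TSS.

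Of the pairs, the 3 with the highest mean score percentile are described. EGLN3 held one in its introns, the region of 965.34 and 467.62 described above and another of 201.68 and 240.97. The latter also overlapped peaks of PC-3 replicate 2 and HCT-116 replicate 2. A pair on chromosome 10 lay 7488 bp from FAM107B, with scores of 355.94 and 149.01, and in an intron of CDNF, with 216.22 and 108.54. At 13378 and 18697 bp from SIK1, which encodes a salt-inducible kinase, lay a pair with 463.05 and 142.44 and with 207.76 and 102.87. The 386 members had 346 different nearest genes, and 31 genes were nearest to more than 1. These were led by PDE4D with 6 members, AOPEP and TCIM with 4 each and SIK1 with 3. The 4 at AOPEP, an aminopeptidase gene, all lay in its introns, with scores from 72.22 to 420.81 in replicate 2. AOPEP was named after its count was seen.

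Genes were next related to members by distance. A member lay within 100 kb of a TSS of 699 of 19794 protein-coding genes (3.53%), which is the background for the lists that follow. Of 50 known HIF target genes, 8 (16.0%) had such a member, and 44 had an A549 region of any kind, which 12.4% of all protein-coding genes had. No test of the list was made.

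Of those 8, 3 belong to glycolysis. PFKP, the platelet isoform of phosphofructokinase, had a member in its intron, which scored 122.34 and 164.78. LDHA, which converts pyruvate to lactate, had one at 9586 bp (134.68 and 93.86). The nearest to PFKFB3, whose product makes the main activator of phosphofructokinase, lay 50618 bp away (104.32 and 77.88) and held 2 AP-1 motifs and no core in its centre. Another member, 54903 bp from the TSS of PFKFB3, scored 535.54 and 310.84, and its sequence is shown above. PC-3 replicate 2 also had a peak at this other member.

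EPAS1, the gene of HIF-2α, had a member at 63029 bp with scores of 231.14 and 126.55, 3 cores and an AP-1 motif, and no peak of another line. BHLHE40, a transcriptional repressor, had one at 43435 bp (321.45 and 224.12), where HCT-116 replicate 2 also had a peak, and another at 46524 bp (154.74 and 55.83). DDIT4, an inhibitor of mTORC1, had one at 29349 bp (351.14 and 188.43), which lay nearer to a TSS of ASCC1, at 26314 bp. The nearest member to LOXL2, which crosslinks collagen, lay in its intron (169.19 and 65.16). Another member in an intron of LOXL2 scored 324.12 and 132.42, and PC-3 replicate 2 and HCT-116 replicate 2 also had a peak there. The nearest member to EGLN3, at 84124 bp from a TSS, was that of 201.68 and 240.97. At 7 of the 8 genes, all but EPAS1, A549 also had a region shared with another line within 100 kb, and at 4 of them, PFKFB3, LDHA, DDIT4 and BHLHE40, within 2 kb of a TSS.

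Other lists gave smaller counts. Of 31 NRF2 target genes 4 (12.9%) had a member within 100 kb. HMOX1, which degrades haem, had one at 7582 bp (144.87 and 69.75) that PC-3 replicate 2 and HCT-116 replicate 2 also had as a peak. A member in an intron of AKR1C3 (290.27 and 233.59), 5389 bp from its TSS, was also the nearest to AKR1C2, and both genes encode aldo-keto reductases. FTH1, the heavy chain of ferritin, had one at 3669 bp (223.51 and 86.03). Neither the AKR1C3 nor the FTH1 member had a core, an AP-1 motif or an ARE in its central 200 bp.

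Of 30 genes of lung epithelial identity, 3 (10%) had a member within 100 kb and 0 had one within 25 kb. Among them, the surfactant gene SFTPB had a member at 72591 bp (190.04 and 199.75) and the keratin gene KRT7 one at 67548 bp (56.66 and 79.25). The SFTPB and KRT7 members lay nearer to TSS of other genes, ATOH8 (10669 bp) and KRT80 (26305 bp), respectively. In 13 AHR target genes, UGT1A6, which encodes a glucuronosyltransferase, had the only one, at 5968 bp in an intron of the UGT1A genes (225.28 and 274.36). Of 40 genes of AP-1, epithelial-mesenchymal transition and matrix, 3 had one, namely the integrin gene ITGB1 (214.81 and 145.12, at 17214 bp), the growth factor gene TGFB1 (60.72 and 110.06, at 13084 bp) and the receptor gene MET (104.44 and 125.85, at 31202 bp). These TGFB1 and MET members lay nearer to TSS of other genes, B9D2 (2857 bp) and CAPZA2 (9340 bp), respectively. PC-3 replicate 2 also had a peak at the ITGB1 and TGFB1 members, and at another member near MET (86.51 and 53.58, at 33996 bp).

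ERRFI1, a feedback inhibitor of the EGF receptor, was the only one of 16 glucocorticoid targets, with a member in its intron (136.08 and 81.68) that held an AP-1 motif. KRT20 was the only one of 15 genes of intestinal identity (113.96 and 105.7), and of 15 genes of luminal breast and prostate identity 0 had a member within 100 kb. PC-3 replicate 2 also had a peak at the KRT20 member. FTH1, ITGB1 and TGFB1 also had an A549 region shared with another line within 100 kb. With counts of 0 to 4 per list, differences between the lists and the 3.53% of all genes rest on few regions.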

How the data were processed

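HIF-1β ChIP-seq was available as 8 peak lists, 1 per library. The submitters' processing notes name Trim Galore 0.3.3, BWA 0.7.5a-r405, SAMtools 0.1.19, Picard 1.106, bedtools 2.17.0 and MACS for the steps from reads to peaks on GRCh37. The study also used the caller T-PIC, and whether the deposited lists were filtered on it was not checked here. Each deposited peak has an interval and a score, whose scale is not given in the sources used here. No list holds reads, so depth is unknown.

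The members, gene lists and motifs were chosen with earlier results of these data known. Sites required peaks of both replicates that overlapped by at least 1 bp, on 24 main chromosomes, and 3 merged regions lay outside these. TSS were starts of protein-coding transcripts of protein-coding genes in GENCODE 44 lifted to GRCh37. Distances run from the edge of a region, and motifs were matched by letters on both strands. The 14 motifs were both HRE cores, the AHR motif (which contains GCGTG), the E-box CACGTG (which contains ACGTG), AP-1 (TGANTCA), ARE, C/EBP, FOX, TEAD and GATA as spelled out with the results, RUNX (TGTGGTT), ETS (CCGGAAG), SP1 (GGGCGG) and the glucocorticoid response element (ACANNNTGT). Shares have exact (Clopper-Pearson) 95% intervals. Lines were compared by the exact permutation test over every pairing of the libraries, with Benjamini-Hochberg adjustment.

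Named members were the 12 with the highest mean score percentile, the nearest to each list gene within 100 kb, those of the 5 largest runs (ties broken by mean score percentile), and those at the 2 kb limit. Some results under this rule are not reported here. Alternatives changed the overlap, score limit, TSS distance, replicates, window and gene distance. Site merging, motif matching and the permutation test were tested on simulated data. Python 3.11.15, NumPy 2.4.6, SciPy 1.17.1, pysam 0.24.0, Matplotlib 3.10.9 and samtools 1.23.1 were used.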

Additional observations from a re-analysis of the deposited data

How the results depend on the processing

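The count of 386 members was most affected by the A549 lists and the score limit. Using only the higher-scoring 50% of each list left 220, of which 176 overlapped members. With 1 library left out and every peak of its partner counted as a site, the count ranged from 299 without PC-3 replicate 1 to 792 without A549 replicate 3. The other alternatives gave 268 to 404, with 268 where a peak of either replicate of another line removed a region. The share of members with ACGTG or GCGTG was 66.7% without A549 replicate 2 and 52.1% without A549 replicate 3, and in both settings every peak of the remaining A549 list counted as a site. In wider sequence it was 83.7% in the central 400 bp and 91.97% in the whole region, and that of AP-1 46.6% and 63.5%, because a longer window holds more matches. With 50% overlap of replicates, a peak of either replicate or the higher-scoring 50%, both shares stayed within the interval of the main value. So did the share in introns and, within its order-statistic interval of 30844 to 46372 bp, the median distance to a TSS, also without either A549 replicate. The share with ACGTG taken separately left its main interval of 48.3 to 58.4%. It was 60.5% with the higher-scoring 50% and 36.6% without A549 replicate 3. The number of features with an adjusted p under 0.05 by the exact permutation test was 0 with the central 400 bp, the whole peak or the higher-scoring 50%, and 5 (AHR, FOX, GATA and SP1 motifs and GC content, adjusted p = 0.0305 each) among peaks that overlapped no peak of another line, where both replicates of a line list many of the same regions. The A549 sets of this last setting also hold the peaks of the 268 members with no peak of another line. Since those members were chosen by line, its p-values cannot decide whether a feature goes with the line. At 25 kb, 3 of the 50 HIF target genes had a member, beside 0.985% of all genes. No paired analysis was possible because the test takes the replicates of a line as the pairs and has no fit to which a replicate block could be added, and A549 shares both of its replicate numbers with HCT-116 only. Depth limits every absence of a peak, since it is unknown for all 8 libraries.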
